A study of Mus musculus with 27 samples.

Results

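The 32 genes described here are markers of Kupffer cells, the resident macrophages of the liver, and of macrophages and related leukocytes in general, measured in RNA from hepatocyte preparations of 9 inbred mouse strains. They were taken by gene symbol, and all 32 were found among the 43346 genes of the deposited count table and passed the filter on low counts, which 14482 genes passed. The mice were female and 12 weeks old, with 3 libraries labelled as biological replicates for each strain, and no treatment is given. NOD/ShiLtJ, NZO/HlLtJ, A/J, 129S1/SvImJ, DBA/2J and C57BL/6J are laboratory strains, and PWK/PhJ, WSB/EiJ and CAST/EiJ are derived from wild mice. The wider study asked how histone marks, DNA methylation and gene expression vary together across these strains, and only expression was analysed here. The way in which hepatocytes were separated from other liver cells is not given in the sources used here.

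Kupffer cells line the liver sinusoids, the capillaries of the liver, where they take up bacteria, debris and aged red blood cells from portal blood. Their survival depends on the receptor Csf1r, and the transcription factor PU.1, encoded by Spi1, is required for the macrophage lineage. The members are known as genes of macrophages and other leukocytes, and which cells of the preparation their transcripts came from was not tested. In bulk RNA, fewer macrophages and less of a transcript per macrophage cannot be told apart for any single gene.

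Promoters of 25 members were listed by RefSeq (GRCm38.p6, the C57BL/6J reference, 250 bases before to 50 after a start), with 29 entries in all. The sequences below are of 2 Kupffer cell identity genes and 2 complement genes with smaller strain departures from the other members, and of 3 genes with departures of more than 2 log2 units. All of them also moved together with the other members across libraries, as described below. Capitals mark a match, on either strand, to GAGGAA (the core of sites bound by PU.1, written TTCCTC on the opposite strand), ATTGG (the reverse of the CCAAT box, written CCAAT on the opposite strand) or GAANNGAAA (the interferon regulatory factor type).
Cd5l: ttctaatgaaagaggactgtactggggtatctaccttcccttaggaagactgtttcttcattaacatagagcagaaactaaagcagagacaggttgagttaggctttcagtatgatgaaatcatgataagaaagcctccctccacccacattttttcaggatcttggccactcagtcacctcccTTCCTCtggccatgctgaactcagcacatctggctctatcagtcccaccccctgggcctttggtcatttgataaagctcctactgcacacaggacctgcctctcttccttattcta
Vsig4: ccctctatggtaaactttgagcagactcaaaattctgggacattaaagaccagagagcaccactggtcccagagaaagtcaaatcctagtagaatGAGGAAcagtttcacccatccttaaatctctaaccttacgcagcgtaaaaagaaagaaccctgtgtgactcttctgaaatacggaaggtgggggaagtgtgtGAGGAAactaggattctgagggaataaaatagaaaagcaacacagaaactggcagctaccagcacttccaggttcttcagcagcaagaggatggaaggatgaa
C1qb: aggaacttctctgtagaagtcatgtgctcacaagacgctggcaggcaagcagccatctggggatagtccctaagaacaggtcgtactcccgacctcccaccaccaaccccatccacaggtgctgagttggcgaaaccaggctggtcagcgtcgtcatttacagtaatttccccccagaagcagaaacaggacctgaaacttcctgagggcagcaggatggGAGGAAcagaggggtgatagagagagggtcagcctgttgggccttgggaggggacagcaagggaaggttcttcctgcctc
C1qc: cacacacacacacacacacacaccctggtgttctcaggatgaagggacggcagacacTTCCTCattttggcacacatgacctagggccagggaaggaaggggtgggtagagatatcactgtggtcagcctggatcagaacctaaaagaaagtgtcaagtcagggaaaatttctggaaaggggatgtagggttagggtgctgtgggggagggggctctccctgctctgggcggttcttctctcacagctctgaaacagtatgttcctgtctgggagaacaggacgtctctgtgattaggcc
Marco: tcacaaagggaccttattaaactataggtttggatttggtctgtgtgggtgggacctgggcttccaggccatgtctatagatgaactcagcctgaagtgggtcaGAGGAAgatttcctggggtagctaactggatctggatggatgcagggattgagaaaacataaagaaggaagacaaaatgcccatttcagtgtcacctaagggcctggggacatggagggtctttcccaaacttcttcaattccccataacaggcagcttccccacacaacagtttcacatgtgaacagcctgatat
H2-Aa: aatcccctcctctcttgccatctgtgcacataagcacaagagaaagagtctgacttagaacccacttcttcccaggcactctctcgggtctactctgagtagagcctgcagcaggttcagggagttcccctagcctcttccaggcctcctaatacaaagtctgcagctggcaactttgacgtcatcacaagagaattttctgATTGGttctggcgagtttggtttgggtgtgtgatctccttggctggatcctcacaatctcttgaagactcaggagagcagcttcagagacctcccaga
H2-Eb1: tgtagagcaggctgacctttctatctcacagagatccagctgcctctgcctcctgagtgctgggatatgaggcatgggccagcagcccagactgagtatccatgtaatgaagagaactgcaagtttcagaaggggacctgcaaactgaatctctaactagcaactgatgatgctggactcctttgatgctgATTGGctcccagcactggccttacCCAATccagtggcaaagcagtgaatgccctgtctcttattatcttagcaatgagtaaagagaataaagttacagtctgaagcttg
These lie at chr3:87357631-87357930 (Cd5l, plus strand), chrX:96293389-96293688 (Vsig4, minus), chr4:136886151-136886450 (C1qb, minus), chr4:136892865-136893164 (C1qc, minus), chr1:120504975-120505274 (Marco, minus), chr17:34287774-34288073 (H2-Aa, minus) and chr17:34305617-34305916 (H2-Eb1, plus). GAGGAA was found in 51.7% of the 29 member promoters and in 28.3% of all 32851 promoters listed. GAANNGAAA was found in 20.7% against 7.52%, and ATTGG in 34.5% against 37.4%. The 2 class II promoters shown, H2-Aa and H2-Eb1, both hold ATTGG, and it occurs a second time in H2-Eb1 on the opposite strand. A match is a description of the letters in the window, not evidence of binding.

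Library totals ran from 17015956 to 35078511 estimated counts, so that 1 count was worth 0.0253 to 0.0516 CPM (a count scaled to library size, adjusted for composition by the TMM method), and this sets the precision of low members. The libraries were hepatocyte libraries by their markers: 10 hepatocyte genes together held 122400 to 367800 CPM, and the 32 members together held 99.5 to 1128 CPM. Levels per kilobase of the longest transcript ran over the members from 0.246 CPM per kb for Fcgr1 to 23.7 CPM per kb for Mpeg1, with Cd74 (22.6), Cd5l (16.0) and Clec4f (14.7) next. All 32 members had a count in each of the 27 libraries, except that Folr2 had 0 counts in CAST/EiJ replicate 4, which allows up to 0.0906 CPM (3 counts). Such limits, and the counting intervals below, cover counting error only, since reads copied by PCR are not independent molecules. Estimated counts were not whole numbers in 27 libraries for Csf1r and Fcgr3 and in 13 for Lyz2, for a reason that was not tested, and these levels are uncertain to that extent. Exons of Csf1r overlap those of Hmgxb3 on the opposite strand, and exons of Folr2 those of Gm10602, whose reads cannot be separated without strand. Irf8 lies within the span of Gm20388 on the same strand, with no shared exon.

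The mean log2 CPM of the 32 members, called the shared level below, was highest in C57BL/6J and spanned 1.98 log2 units (3.95-fold) between strain means. It was 3.21 ± 0.216 in C57BL/6J, 2.79 ± 0.726 in A/J and 2.64 ± 0.794 in PWK/PhJ (SD, n = 3 each). It was 1.80 ± 1.17 in DBA/2J, 1.61 ± 0.435 in WSB/EiJ and 1.59 ± 0.762 in NZO/HlLtJ (SD, n = 3 each). The other strains were NOD/ShiLtJ at 1.39 ± 0.0477, 129S1/SvImJ at 1.23 ± 0.561 and CAST/EiJ at 1.23 ± 0.0324 (SD, n = 3 each). Neighbouring strains in this order lay closer together than the pooled spread between libraries of a strain (SD 0.637), apart from the step of 0.83 from PWK/PhJ to DBA/2J. Single libraries stood apart within strains. A/J replicate 2 (3.55) and PWK/PhJ replicate 1 (3.56) were the highest of all 27, while the other libraries of those strains were at 2.10 and 2.73, and at 2.21 and 2.15. DBA/2J replicate 4 (0.49) was the lowest of all, while the other DBA/2J libraries were at 2.21 and 2.71. PWK/PhJ replicate 1 held the highest value of 22 of the 32 members, and NZO/HlLtJ replicate 3 and DBA/2J replicate 4 the lowest of 10 and 8. Members that move together share such extremes, and the same counts over all genes were not made. Where PWK/PhJ replicate 1 or A/J replicate 2 decided a count of members or the highest strain of a member named below, the value without it is given. Genes outside the members were not recomputed in this way.

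**Figure D1:**
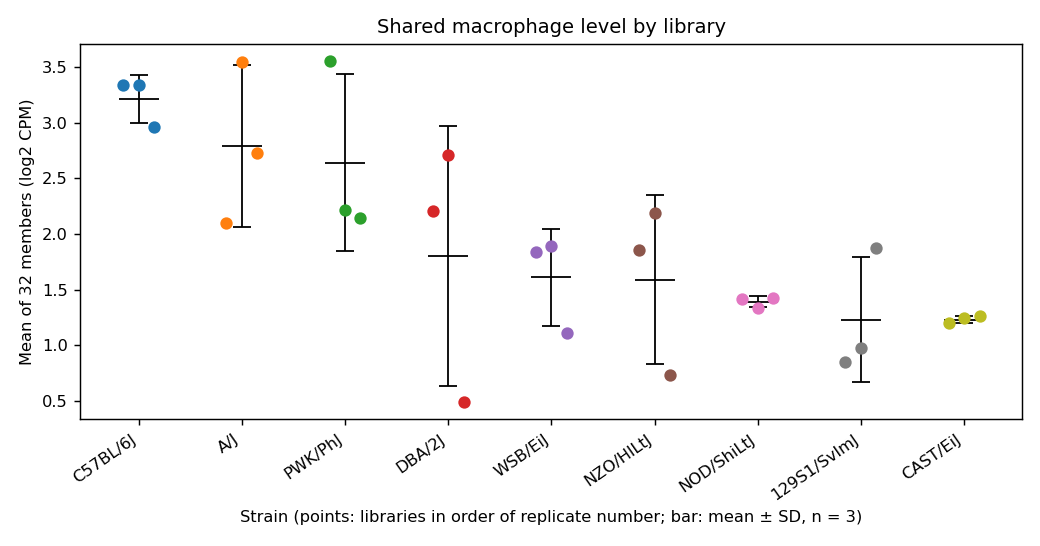
Mean log2 CPM of the 32 members (vertical axis) in each of 27 libraries (points) by strain, with the strain mean and SD (n = 3) as bars. C57BL/6J has the highest mean (3.21), NOD/ShiLtJ and CAST/EiJ the narrowest spread, and DBA/2J the widest, from 0.49 to 2.71.

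All 32 members differed among the 9 strains in the edgeR quasi-likelihood test at an adjusted p under 0.05, but so did 74.2% of all genes tested. The share of a member's variance that lay between strains had a median of 67.6%, against 66.6% over all genes, so the members were not set apart from other genes by this measure. The fold between the highest and the lowest strain mean ran from 3.82 for Slc11a1 to 131 for Folr2, with a median of 5.46. Of the 32 highest strain means, 16 were in PWK/PhJ, 13 in C57BL/6J and 3 in A/J. Without PWK/PhJ replicate 1, 24 were in C57BL/6J, 5 in PWK/PhJ (Cd74, H2-Aa, H2-Ab1, Mpeg1 and Irf8) and 3 in A/J. The folds then ran from 3.25 for Spi1 to 131 for Folr2, with a median of 5.19. Without A/J replicate 2, none was in A/J, and Timd4, Marco and Cd163 were highest in C57BL/6J. Of the lowest, 14 were in 129S1/SvImJ, 8 in CAST/EiJ and 4 in NOD/ShiLtJ, with 2 each in NZO/HlLtJ, PWK/PhJ and WSB/EiJ. These counts of strains were not made over all genes, and members that move together are not independent in them.

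Each strain was then set against the mean of the other 8. The 9 contrasts share libraries and are therefore given side by side and not compared. In C57BL/6J, 27 members were higher and none lower, with a median log2 difference of 1.30 over the 32, where 11.6% of all genes were higher and 6.5% lower. The 5 members not called there were Spi1, Irf8, Cd74, Aif1 and Mpeg1. The count was 17 without C57BL/6J replicate 1 and 14 without replicate 2. In PWK/PhJ, 22 were higher and 4 lower (median 1.20), where 19.4% of all genes were higher and 14.8% lower. The 4 lower ones were Marco, Lyz2, H2-Eb1 and Ccl6. Without PWK/PhJ replicate 1 the number called was 10 in place of 26. In that library the summed level of 12 liver sinusoidal endothelial genes was 1037 CPM, against 80.4 to 412 CPM in the other 26, and its part in the PWK/PhJ result was not tested. In A/J, 19 members were higher and none lower (median 0.962), where 15.9% of all genes were higher and 11.6% lower. This count was 4 without A/J replicate 2 and 10 without replicate 3.

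In CAST/EiJ none was higher and 11 were lower (median -0.918), where 20.1% of all genes were higher and 17.8% lower. The 11 were Vsig4, Timd4, Adgre1, Csf1r, C1qa, Cd68, Lyz2, Laptm5, Folr2, Irf8 and Ccl6. Leaving out a CAST/EiJ library gave 5 (replicate 1), 5 (replicate 4) or 3 (replicate 5). In 129S1/SvImJ none was higher and 6 were lower (Cd5l, Vsig4, C1qa, C1qb, Ctss and Mpeg1; median -0.897), where 10.5% of all genes were higher and 7.86% lower. The count was 1 without 129S1/SvImJ replicate 1 or 2, 11 without replicate 3 and 15 without DBA/2J replicate 4. In NOD/ShiLtJ the 3 lower members, Cd74, H2-Aa and H2-Ab1, all belong to MHC class II, and none was higher (median -0.780), where 9.2% of all genes were higher and 5.72% lower. The count was 5 without DBA/2J replicate 4. In NZO/HlLtJ, Marco, Folr2 and H2-Eb1 were higher and Clec4f and Cd163 lower (median -0.560), where 14.8% of all genes were higher and 12.9% lower. The count was 8 without DBA/2J replicate 4, 3 without NZO/HlLtJ replicate 1 and 2 without replicate 2. In WSB/EiJ, Folr2 and H2-Eb1 were lower and none was higher (median -0.268), where 15.5% of all genes were higher and 9.25% lower. In DBA/2J only Mpeg1 was called, as higher (median 0.0595), where 9.5% of all genes were higher and 3.78% lower. That count was 0 without DBA/2J replicate 2 and 2 without replicate 4.

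**Figure D2:**
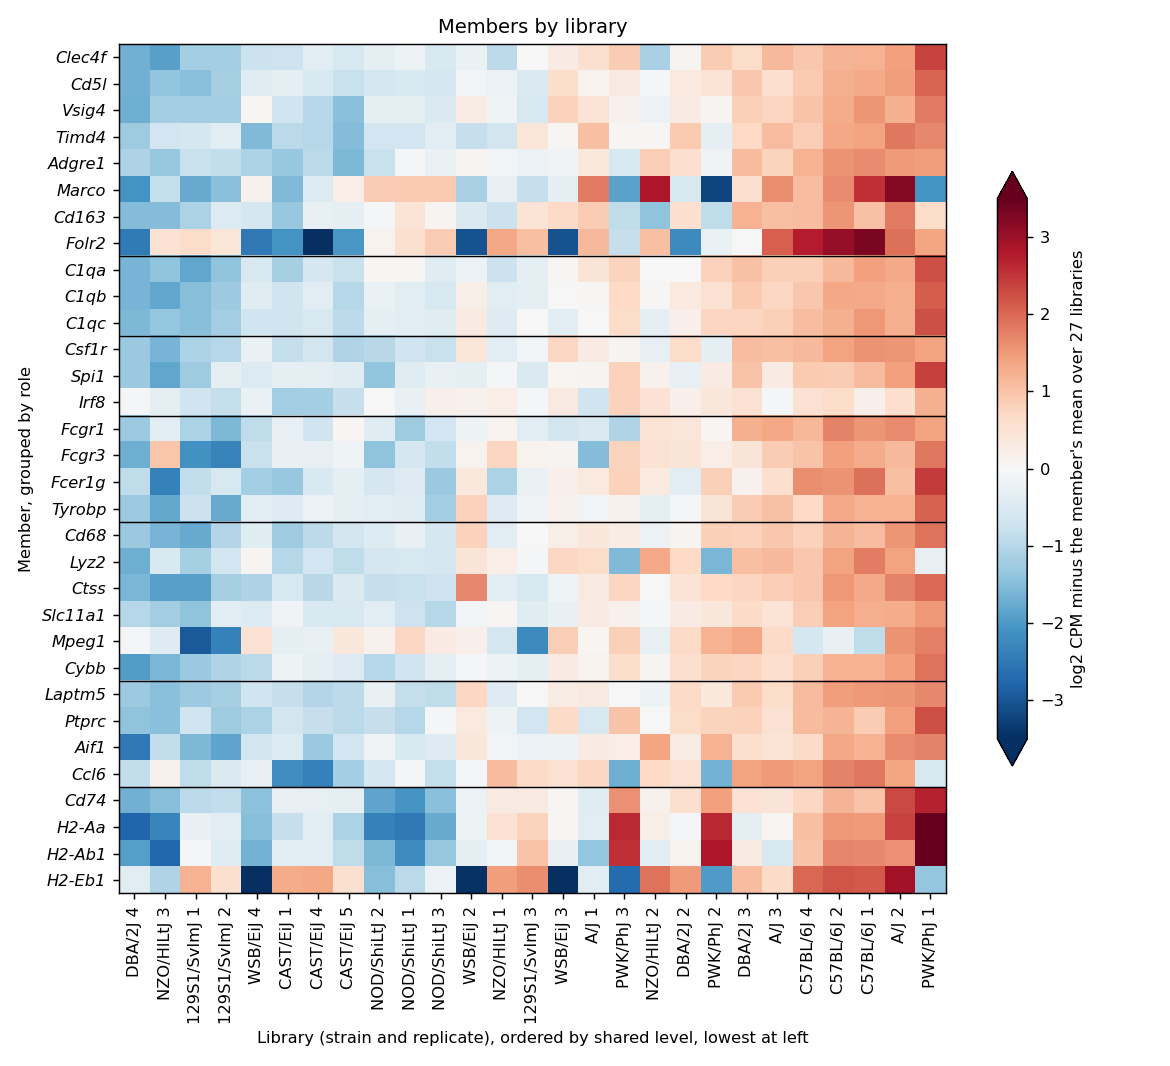
Log2 CPM of each member (rows, grouped by role) minus its mean over 27 libraries, with libraries (columns) ordered by shared level from DBA/2J replicate 4 to PWK/PhJ replicate 1; colours are capped at 3.5 log2 units. Most rows pass from blue to red together, while Marco, Folr2, Mpeg1, Lyz2, Ccl6 and H2-Eb1 show strain blocks that break the gradient.

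The next comparison asked which members moved together from library to library within strains, and which kept a strain difference of their own. For each member, the mean log2 CPM of the other 31 was added to the strain model as a covariate. All 32 members had a positive slope on it that passed the edgeR test, against 2.81% of all genes tested with the level of all 32 (for all genes the median slope was -0.00164, and 0.207% had a called negative slope). The median slope of the members was 1.04, so that a doubling of the other members went with about a doubling of the typical member. The slopes ran from 0.462 for Irf8 to 1.42 for H2-Aa, and the next lowest was that of Mpeg1 (0.504 ± 0.112 SE). Without A/J replicate 2 and PWK/PhJ replicate 1 together, 26 slopes passed, and with the endothelial list as a second covariate 26 passed.

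Given the shared level, 26 of the 32 members still differed among strains (edgeR, adjusted p under 0.05), and so did 66.5% of all genes tested. The other 6, Spi1, Fcgr1, Fcer1g, Tyrobp, Slc11a1 and Aif1, followed the shared level with no strain difference beyond it that passed the test. Their adjusted p values ran from 0.0555 for Tyrobp to 0.689 for Slc11a1, which does not show that they lack such differences. Of 38 other settings, Tyrobp passed in 9, Fcer1g in 4, Aif1 in 2, and Spi1 and Slc11a1 in 1 each. In the setting where the level was taken from the Kupffer cell identity members alone, all of these 5 passed, with adjusted p from 4.35e-04 (Spi1) to 0.0135 (Aif1). The largest departures were large in fold and concerned few genes: H2-Eb1, Marco, Folr2, H2-Ab1, Mpeg1, H2-Aa, Ccl6 and Lyz2 each had a strain more than 2 log2 units away from the other 8. The shared level includes such members. In WSB/EiJ, low Folr2 and H2-Eb1 (-3.95 and -4.96) lowered the level, which raised the differences of other members there. Without the shared level no member was called higher in WSB/EiJ. The size of this effect was not tested beyond the other forms of the level.

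**Figure D3:**
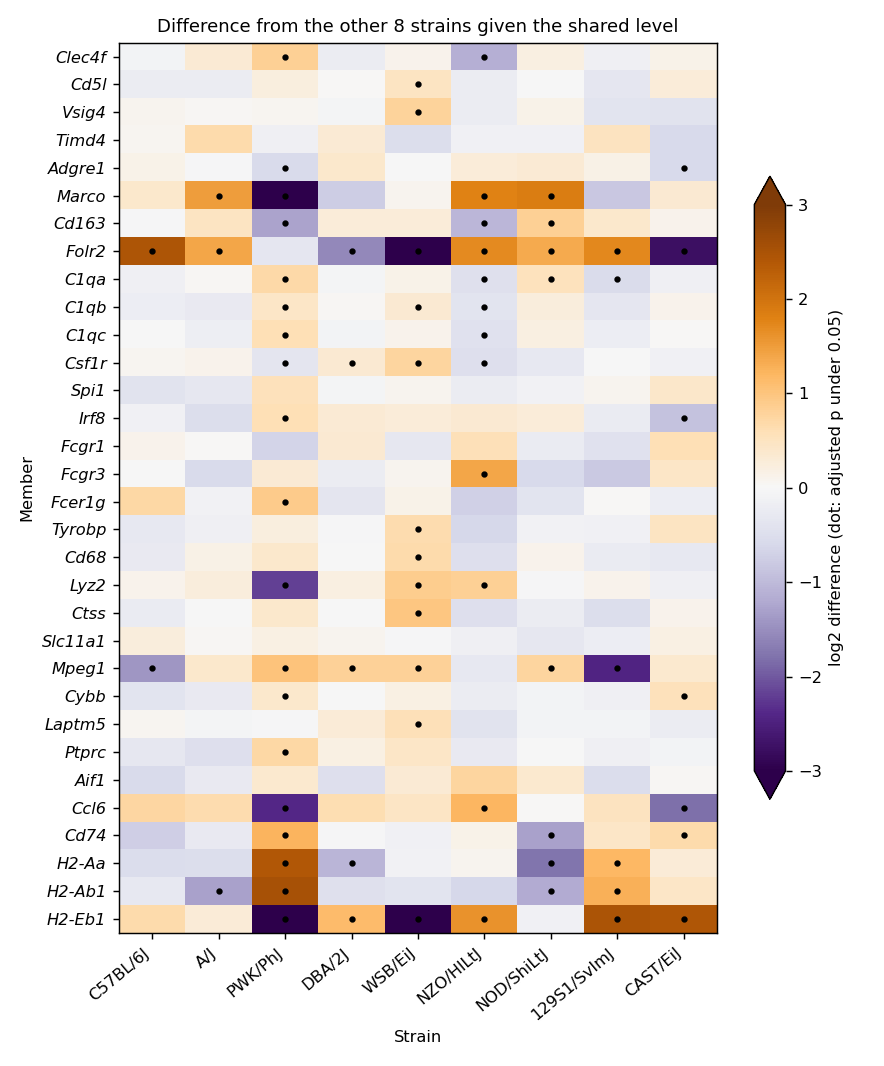
Log2 difference of each strain (columns) from the mean of the other 8, given the shared level of the other members, for each member (rows); colours are capped at 3 log2 units and dots mark an adjusted p under 0.05. The strongest colours are in PWK/PhJ and WSB/EiJ (H2-Eb1 -3.54 and -4.96) and in the row of Folr2, where 8 of 9 strains carry a dot.

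Of the 8 Kupffer cell identity genes, Clec4f, a galactose-binding lectin restricted to Kupffer cells, had the highest level per length after Cd5l. Clec4f was 12.3, 12.3 and 27.7 CPM in the 129S1/SvImJ libraries, 41.4, 75.5 and 62.0 in A/J, and 64.9, 64.1 and 53.8 in C57BL/6J. It was 144, 51.5 and 51.8 CPM in PWK/PhJ and 14.9, 12.7 and 7.51 in NZO/HlLtJ. The C57BL/6J and NZO/HlLtJ libraries did not overlap, and the strain means spanned 7.06-fold, from NZO/HlLtJ to PWK/PhJ (adjusted p = 3.12e-05). Without PWK/PhJ replicate 1 they spanned 5.21-fold, and C57BL/6J was highest. Given the shared level, Clec4f departed mainly in NZO/HlLtJ (log2 difference -1.13 ± 0.145 SE, adjusted p = 2.88e-06) and in the opposite direction in PWK/PhJ (0.843 ± 0.133 SE, adjusted p = 3.05e-05). Cd5l, a secreted scavenger receptor protein also called AIM, had strain means from 13.2 ± 4.63 CPM in 129S1/SvImJ to 59.7 ± 8.80 CPM in C57BL/6J (SD, n = 3). Its slope on the other members was 1.07 ± 0.0713 SE, and its only called departure was 0.482 ± 0.113 SE in WSB/EiJ. That call was lost in 3 of 38 other settings, among them without WSB/EiJ replicate 3 (0.304, adjusted p = 0.109) and with the shared level as a median (0.283, adjusted p = 0.159). Vsig4, the complement receptor CRIg, was 15.4 ± 2.79 CPM in C57BL/6J, its highest strain, and 3.04 ± 0.813 CPM in CAST/EiJ, its lowest (SD, n = 3). It was 0.793 ± 0.152 SE above the other strains in WSB/EiJ given the shared level.

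Timd4, a receptor for phosphatidylserine on dying cells that marks long-resident Kupffer cells, was highest in A/J (4.71 ± 1.60 CPM) and lowest in CAST/EiJ (0.767 ± 0.174 CPM; SD, n = 3). Its strain effect passed given the shared level (adjusted p = 0.0315) and failed in 6 of 38 other settings. No single strain passed, but the difference of A/J (0.662) did in 6 of the 38, with adjusted p down to 0.0162. Adgre1, which encodes the macrophage surface protein F4/80, was, like Vsig4, highest and lowest in the same strains, with 12.2 ± 1.88 CPM in C57BL/6J and 1.75 ± 0.415 CPM in CAST/EiJ (SD, n = 3). Given the shared level it was lower in CAST/EiJ (-0.590 ± 0.202 SE, adjusted p = 0.0294) and PWK/PhJ (-0.571 ± 0.190 SE, adjusted p = 0.0260). The CAST/EiJ difference failed in 7 of 38 other settings. Cd163, the receptor for haemoglobin bound to haptoglobin, was 13.3 CPM in its highest library, A/J replicate 2, and 1.24 CPM in its lowest, DBA/2J replicate 4. It departed downward in PWK/PhJ (-1.27 ± 0.290 SE, adjusted p = 0.00176) and NZO/HlLtJ (-1.05 ± 0.279 SE, adjusted p = 0.00793), and upward in NOD/ShiLtJ (0.838 ± 0.249 SE, adjusted p = 0.0247).

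Folr2, a folate receptor of resident tissue macrophages, had the widest range of the 32 members. Its level was 8.99, 7.76 and 6.14 CPM in the C57BL/6J libraries, 1.96, 3.46 and 3.91 in A/J, and 2.32, 1.87 and 1.25 in NZO/HlLtJ. It was 1.40, 1.17 and 1.86 CPM in 129S1/SvImJ, 1.30, 0.936 and 1.64 in NOD/ShiLtJ, and 2.36, 0.722 and 0.465 in PWK/PhJ. It was 0.127, 0.854 and 0.0956 CPM in DBA/2J, 0.148, 0 and 0.155 in CAST/EiJ, and 0.0422, 0.0403 and 0.0921 in WSB/EiJ. The C57BL/6J libraries lay above all others, and the highest library outside that strain was at 3.91 CPM. The 3 WSB/EiJ libraries together held 4 counts (0.0569 CPM, exact 95% Poisson interval 0.0155 to 0.146), and the other 24 libraries were 35.7-fold higher (exact 95% interval for counting error 13.9 to 131). The 3 CAST/EiJ libraries held 8 counts, and the others were 22.4-fold higher (11.4 to 52.1). All strains but PWK/PhJ departed from the shared level, from -3.95 ± 0.616 SE in WSB/EiJ and -2.76 ± 0.572 SE in CAST/EiJ to 2.46 ± 0.412 SE in C57BL/6J (adjusted p = 3.17e-05, 6.11e-04 and 2.74e-04). Fitted log2 differences with so few counts depend on the small count edgeR adds. WSB/EiJ, the strain with the lowest mean of Folr2, was not the lowest in Cd5l, at 24.8, 40.7 and 19.6 CPM.

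Marco, a scavenger receptor that binds bacteria, had a different order of strains. It was 3.38, 9.08 and 2.96 CPM in A/J, 5.74, 3.00 and 2.02 in C57BL/6J, and 1.79, 1.77 and 1.78 in NOD/ShiLtJ. It was 0.739, 6.86 and 0.481 CPM in NZO/HlLtJ, 0.591, 1.41 and 0.159 in DBA/2J, and 0.379, 0.726 and 1.01 in WSB/EiJ. It was 0.266, 0.634 and 1.08 CPM in CAST/EiJ, 0.217, 0.286 and 0.489 in 129S1/SvImJ, and 0.160, 0.0344 and 0.199 in PWK/PhJ. PWK/PhJ, which was among the highest strains in Clec4f, was thus the lowest in Marco, with 11 counts in its 3 libraries together (0.130 CPM, exact 95% Poisson interval 0.0651 to 0.233). The other 24 libraries were 14.6-fold higher (exact 95% interval for counting error 8.13 to 29.3). The PWK/PhJ difference given the shared level was -4.35 ± 0.762 SE (adjusted p = 1.12e-04), and NOD/ShiLtJ, NZO/HlLtJ and A/J were higher by 1.86, 1.79 and 1.48. The spread between NZO/HlLtJ libraries was wide, and replicate 2 alone held 6.86 CPM. The positive slope of Marco (1.23 ± 0.328 SE, adjusted p = 0.0386) failed in 15 of 38 other settings.

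**Figure D4:**
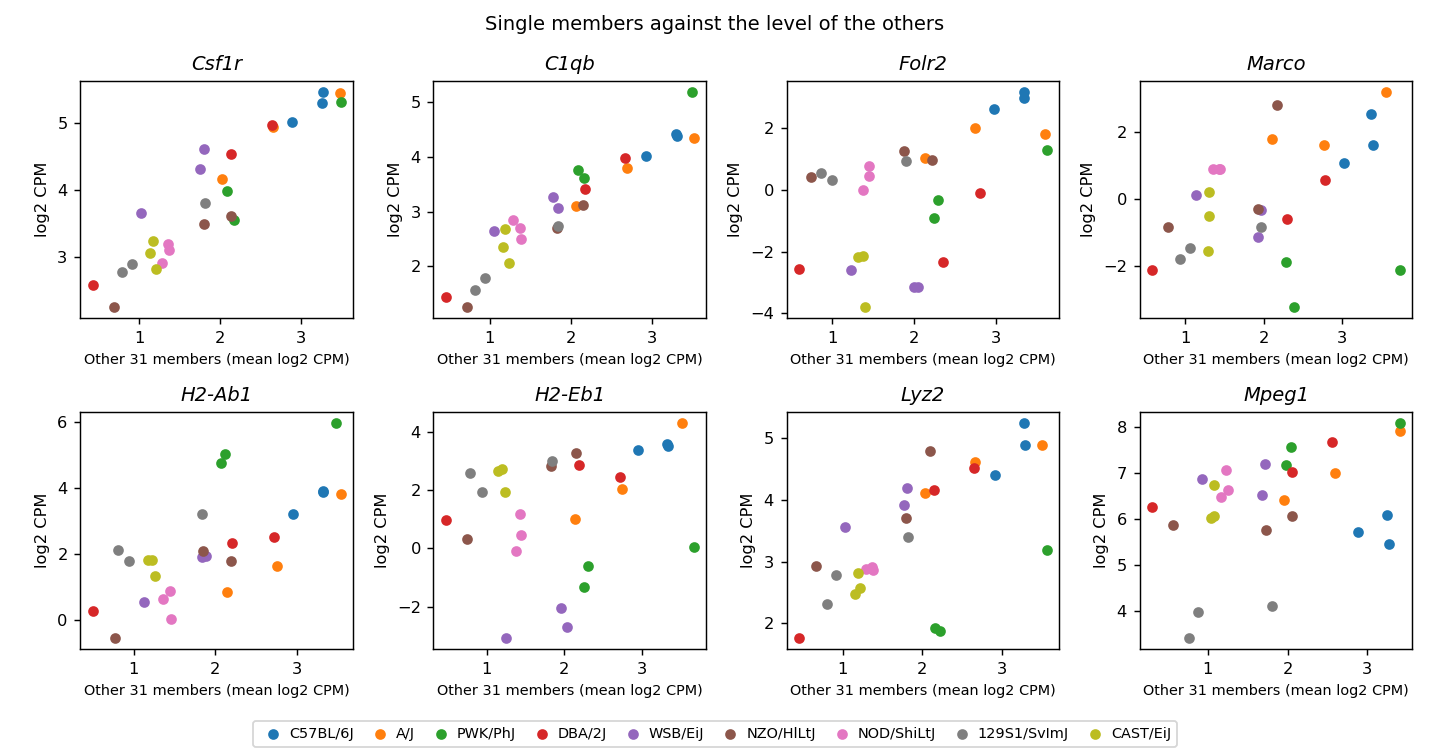
Log2 CPM of 8 members (vertical axes) against the mean log2 CPM of the other 31 (horizontal axes), with a point for each of 27 libraries coloured by strain. Csf1r and C1qb form narrow bands, while PWK/PhJ lies apart in Marco, H2-Ab1, H2-Eb1 and Lyz2, WSB/EiJ in H2-Eb1 and Folr2, and 129S1/SvImJ in Mpeg1.

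C1qa, C1qb and C1qc encode the 3 chains of C1q, which starts the classical complement pathway and is made mainly by macrophages. C1qb was 2.88, 3.38 and 6.59 CPM in 129S1/SvImJ, 20.9, 21.3 and 16.1 in C57BL/6J, and 36.4, 12.1 and 13.5 in PWK/PhJ. C1qa and C1qc kept to similar levels in the same libraries, with 39.2 and 35.6 CPM in PWK/PhJ replicate 1. The strain means of the 3 genes spanned 5.83-fold, 4.83-fold and 4.51-fold, each from 129S1/SvImJ to PWK/PhJ. Without PWK/PhJ replicate 1 the PWK/PhJ means were 14.1, 12.8 and 12.0 CPM, C57BL/6J was highest at 18.1, 19.4 and 18.2 CPM, and the spans were 4.70-fold, 4.53-fold and 4.12-fold. The slopes of the 3 genes on the other members were 1.00, 1.08 and 1.01. Each was higher in PWK/PhJ given the shared level, by 0.687 ± 0.154 SE, 0.438 ± 0.124 SE and 0.593 ± 0.139 SE. With the endothelial list as a second covariate the differences were 0.452, 0.381 and 0.430, and none passed (adjusted p = 0.0628, 0.0667 and 0.0541). That of C1qb was also not called without PWK/PhJ replicate 3 (adjusted p = 0.104). The strain effect of C1qc given the level had an adjusted p of 0.316 with that covariate. Called differences in NZO/HlLtJ were -0.449, -0.376 and -0.433. C1qa also differed in 129S1/SvImJ (-0.558 ± 0.174 SE) and NOD/ShiLtJ (0.529 ± 0.157 SE), and C1qb in WSB/EiJ (0.341 ± 0.121 SE).

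Csf1r, the receptor for the growth factors Csf1 and Il34, was 43.9, 39.1 and 32.3 CPM in C57BL/6J, 17.9, 43.6 and 30.5 in A/J, and 8.28, 9.36 and 7.06 in CAST/EiJ. The C57BL/6J and CAST/EiJ libraries did not overlap, and their means differed 4.67-fold. Its slope was 1.03 ± 0.0645 SE. The largest departure was in WSB/EiJ, where Csf1r was 0.754 ± 0.1 SE above the other strains given the shared level (adjusted p = 3.87e-06). Over 38 other settings this difference ran from 0.547 to 1. Without the shared level Csf1r was not called there (0.294 ± 0.342 SE). Spi1 was 6.51, 1.48 and 2.12 CPM in PWK/PhJ and 0.465, 0.944 and 0.815 in 129S1/SvImJ, its highest and lowest strains, which did not overlap. Without PWK/PhJ replicate 1 the PWK/PhJ mean was 1.80 CPM, under that of C57BL/6J (2.41 CPM). Spi1 had no strain difference beyond the shared level that passed (adjusted p = 0.257). Irf8, a transcription factor of monocyte, macrophage and dendritic cell development, had the lowest slope of the 32, with a mean of 4.09 ± 1.20 CPM in PWK/PhJ and 1.03 ± 0.180 CPM in CAST/EiJ (SD, n = 3). In DBA/2J replicate 4, the library with the lowest shared level, Irf8 was 2.10 CPM, beside 2.49 and 3.21 CPM in the other DBA/2J libraries. It departed downward in CAST/EiJ (-0.901 ± 0.206 SE, adjusted p = 0.00164) and upward in PWK/PhJ (0.595 ± 0.174 SE, adjusted p = 0.0121).

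The 4 Fc receptor and adaptor genes averaged 0.636 CPM (Fcgr1) to 2.13 CPM (Tyrobp). Fcgr1, the high-affinity receptor for IgG, had strain means from 0.220 ± 0.126 CPM in 129S1/SvImJ to 1.49 ± 0.296 CPM in C57BL/6J (SD, n = 3). Fcer1g and Tyrobp, the adaptors that pass on signals from Fc and other receptors, were highest in PWK/PhJ replicate 1, with 6.55 and 7.47 CPM, and lowest in NZO/HlLtJ replicate 3, with 0.160 and 0.449 CPM. For none of these 3 did the strain effect given the shared level pass as a whole, although single contrasts did for Fcer1g in PWK/PhJ (0.910 ± 0.303 SE) and Tyrobp in WSB/EiJ (0.654 ± 0.223 SE). Fcgr3, a low-affinity IgG receptor, departed in NZO/HlLtJ, where it was 2.24, 1.92 and 2.63 CPM although the shared level of replicate 3 was 0.732 (1.40 ± 0.356 SE, adjusted p = 0.00621). Without that library the departure was 0.734 (adjusted p = 0.0854), and the strain effect of Fcgr3 given the shared level, counted among the 26 above, did not pass (adjusted p = 0.0597). Its counts were not whole in any library.

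Among the 6 lysosomal and antimicrobial genes, Cd68, a lysosomal membrane protein, Cybb and Slc11a1 had the smallest departures from the shared level, and the called departure of Cd68 was 0.663 ± 0.173 SE in WSB/EiJ (0.41, adjusted p = 0.166, without WSB/EiJ replicate 2). Cybb, the catalytic subunit of the phagocyte NADPH oxidase, had a slope of 1.11 ± 0.0877 SE and departed by 0.560 ± 0.154 SE in CAST/EiJ (adjusted p = 0.0697 without CAST/EiJ replicate 1) and by 0.382 ± 0.141 SE in PWK/PhJ. Slc11a1, the phagosomal metal transporter Nramp1, had the smallest fold between strain means, from 1.24 ± 0.459 CPM in 129S1/SvImJ to 4.74 ± 0.893 CPM in C57BL/6J (SD, n = 3). Without PWK/PhJ replicate 1 its fold was 3.81, and those of Spi1, Irf8 and Tyrobp were smaller (3.25, 3.35 and 3.77). Ctss, a protease that trims the class II invariant chain, was called higher in WSB/EiJ given the shared level (0.971 ± 0.238 SE, adjusted p = 0.00342). That difference rested on replicate 2, with 20.1 CPM beside 5.53 and 2.90 CPM in the other WSB/EiJ libraries. Without it the difference was -0.0835 (adjusted p = 0.762).

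Mpeg1, a pore-forming protein of phagolysosomes, had the highest level per length of the 32 and a strain order of its own. It was 10.6, 15.7 and 17.2 CPM in 129S1/SvImJ, 43.6, 67.5 and 52.7 in C57BL/6J, and 54.1, 67.0 and 58.7 in NZO/HlLtJ. It was 64.4, 66.8 and 106 CPM in CAST/EiJ, 91.1, 145 and 117 in WSB/EiJ, and 133, 89.4 and 99.1 in NOD/ShiLtJ. It was 129, 205 and 76.6 CPM in DBA/2J, 85.2, 240 and 127 in A/J, and 273, 189 and 144 in PWK/PhJ. The 129S1/SvImJ libraries lay below all others, and C57BL/6J, the strain with the highest shared level, had the second lowest mean. Relative to the other 31 members, Mpeg1 was lower in 129S1/SvImJ (-2.46 ± 0.242 SE, adjusted p = 9.18e-08) and in C57BL/6J (-1.42 ± 0.259 SE, adjusted p = 8.49e-04). PWK/PhJ, DBA/2J, WSB/EiJ and NOD/ShiLtJ were higher by 1.03, 0.809, 0.802 and 0.764. DBA/2J replicate 4 held 76.6 CPM of Mpeg1 and 8.61 CPM of Clec4f.

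Lyz2, lysozyme M, was 38.1, 29.5 and 21.2 CPM in C57BL/6J, 17.3, 29.6 and 24.5 in A/J, and 9.03, 3.61 and 3.72 in PWK/PhJ. PWK/PhJ was thus the lowest strain for Lyz2 and among the highest for C1q, Clec4f and Cd74. Lyz2 was lower there given the shared level (-2.19 ± 0.199 SE, adjusted p = 7.62e-09), and it was higher in WSB/EiJ (0.882 ± 0.151 SE) and NZO/HlLtJ (0.843 ± 0.147 SE). Its counts were not whole in 13 libraries. The genome to which the reads of each strain were aligned is not given in the sources used here, and its part in the low values of PWK/PhJ, CAST/EiJ and WSB/EiJ was not tested.

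Of the general leukocyte genes, Ptprc, which encodes CD45, and Laptm5, a lysosomal protein of blood cells, had slopes of 1.07 ± 0.139 SE and 1.05 ± 0.0917 SE. Given the shared level, Ptprc was higher in PWK/PhJ (0.715 ± 0.221 SE, adjusted p = 0.017) and Laptm5 in WSB/EiJ (0.563 ± 0.147 SE, adjusted p = 0.00567). Their strain effects given the shared level failed in 5 and 3 of 38 other settings. Ptprc was 10.2, 3.57 and 4.18 CPM in PWK/PhJ, its highest strain, and 1.24, 0.830 and 1.27 in 129S1/SvImJ, its lowest, which did not overlap. Without PWK/PhJ replicate 1 its mean in PWK/PhJ was 3.88 CPM, under that of C57BL/6J (4.41 CPM). Aif1, the cytoskeletal protein Iba1, averaged 0.902 CPM and held 2 counts in DBA/2J replicate 4. Its strain effect had an adjusted p of 0.0155, and of 0.0512 without the 2 highest libraries. Ccl6, a chemokine, departed most of these 4. It was 3.49, 3.24 and 2.57 CPM in C57BL/6J, 2.06, 1.54 and 1.03 in NZO/HlLtJ, 0.599, 0.241 and 0.232 in PWK/PhJ, and 0.148, 0.121 and 0.361 in CAST/EiJ. Its departures were downward in PWK/PhJ (-2.40 ± 0.346 SE, adjusted p = 9.56e-06) and CAST/EiJ (-1.81 ± 0.367 SE, adjusted p = 4.85e-04) and upward in NZO/HlLtJ (1.21 ± 0.240 SE, adjusted p = 7.39e-04).

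MHC class II molecules present peptides to helper T cells. H2-Aa and H2-Ab1 encode the 2 chains of the I-A molecule, H2-Eb1 the beta chain of I-E, and Cd74 the invariant chain that guides them through the cell. The median slope of these 4 was 1.31, against 0.973 to 1.06 in the other 6 groups of members. H2-Ab1 was 63.2, 33.0 and 26.9 CPM in PWK/PhJ, 14.6, 15 and 9.21 in C57BL/6J, and 4.31, 3.35 and 9.23 in 129S1/SvImJ. It was 1.74, 14.0 and 3.04 CPM in A/J, 4.94, 5.62 and 1.15 in DBA/2J, and 4.23, 3.42 and 0.609 in NZO/HlLtJ. It was 3.67, 3.75 and 1.38 CPM in WSB/EiJ, 3.46, 3.44 and 2.42 in CAST/EiJ, and 0.941, 1.49 and 1.78 in NOD/ShiLtJ. The PWK/PhJ libraries lay above all others, and the same held for H2-Aa, at 73.3, 32.8 and 32.4 CPM in PWK/PhJ. PWK/PhJ was also higher given the shared level in H2-Ab1 (2.53 ± 0.202 SE, adjusted p = 6.98e-10), in H2-Aa (2.41 ± 0.212 SE, adjusted p = 3.87e-09) and in Cd74 (1.23 ± 0.171 SE, adjusted p = 5.54e-06). NOD/ShiLtJ was lower in the same 3 genes (H2-Ab1 -1.18 ± 0.300 SE, H2-Aa -1.76 ± 0.329 SE, Cd74 -1.30 ± 0.210 SE). H2-Ab1 was also lower in A/J (-1.31 ± 0.312 SE) and higher in 129S1/SvImJ (1.27 ± 0.259 SE). B cells also carry class II molecules, and 2 of 6 listed B cell genes were tested. Ighm, the heavy chain of IgM, was highest in NOD/ShiLtJ, with a mean of 22.3 CPM. Cd79b, a signalling chain of the B cell receptor, had its highest mean in PWK/PhJ (0.396 CPM), and its strain effect did not pass (adjusted p = 0.16 in the edgeR test). Their part in the class II values was not tested.

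H2-Eb1 did not share the PWK/PhJ pattern. It was 0.958, 0.584 and 0.332 CPM in PWK/PhJ and 0.169, 0.0807 and 0.0460 in WSB/EiJ. It was 5.96, 3.78 and 7.99 CPM in 129S1/SvImJ, 6.35, 6.55 and 3.82 in CAST/EiJ, and 11.6, 12.0 and 10.4 in C57BL/6J. It was 1.96, 20.1 and 4.07 CPM in A/J, 7.26, 5.42 and 1.91 in DBA/2J, 7.11, 9.74 and 1.19 in NZO/HlLtJ, and 1.30, 0.866 and 2.20 in NOD/ShiLtJ. The WSB/EiJ libraries lay below all others, with 7 counts together (0.0996 CPM, exact 95% Poisson interval 0.0401 to 0.205), and the other 24 libraries were 54.7-fold higher (exact 95% interval for counting error 26.5 to 136). The 51 counts of the PWK/PhJ libraries gave a ratio of 9.09 (6.90 to 12.2). The ratio of H2-Eb1 to H2-Ab1 counts within a library, in which the scaling to library size cancels, was 0.0151 ± 0.00267 in PWK/PhJ and 0.0336 ± 0.0122 in WSB/EiJ (SD, n = 3). In the other 7 strains its mean ran from 0.907 ± 0.192 in C57BL/6J to 2.16 ± 0.614 in NZO/HlLtJ (SD, n = 3), and no library was under 0.581. The ratio of H2-Aa to H2-Ab1 was between 0.611 and 2.32 in all 27 libraries, PWK/PhJ and WSB/EiJ included. Given the shared level, H2-Eb1 was lower in WSB/EiJ (-4.96 ± 0.629 SE, adjusted p = 1.88e-06) and PWK/PhJ (-3.54 ± 0.490 SE, adjusted p = 5.53e-06) and higher in 129S1/SvImJ, CAST/EiJ, NZO/HlLtJ and DBA/2J, by 2.47, 2.42, 1.61 and 1.14.

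The A/J libraries differed widely in class II. Cd74 was 16.3, 110 and 30.2 CPM in the 3 A/J libraries and H2-Aa 4.02, 27.5 and 5.53 CPM, while Clec4f was 41.4, 75.5 and 62.0 CPM. The spread between A/J libraries in class II was thus wider than in Clec4f. In A/J the 2 tested B cell genes summed to 1.96, 4.31 and 5.65 CPM and the 6 tested dendritic cell genes to 4.84, 6.36 and 4.54 CPM. The part of such cells in these values was not tested.

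The class II partner genes, listed separately from the members, were Ciita, the transactivator of class II genes, genes of the peptide-loading molecules H2-DM and H2-O, and H2-Ea, the alpha chain of I-E, for which no row was matched. Of 7 listed, 4 were tested, 3 differed among strains, a share close to the 74.2% of all genes, and 3 had a called positive slope on the shared level, which 2.81% of all genes had. Ciita had a slope of 1.5 ± 0.252 SE, H2-DMb1 of 1.55 ± 0.276 SE and H2-DMa of 0.888 ± 0.171 SE. Strain means of Ciita ran from 0.113 CPM in 129S1/SvImJ to 1.81 CPM in PWK/PhJ, and those of H2-DMb1 from 0.0781 CPM in NOD/ShiLtJ to 3.57 CPM in PWK/PhJ. NOD/ShiLtJ and PWK/PhJ were also the lowest and highest strains for H2-Aa. The fourth tested partner, H2-DMb2, was highest in A/J (1.18 CPM) and lowest in PWK/PhJ (0.197 CPM), with no strain effect that passed (adjusted p = 0.0960) and a slope of 0.577 that was not called. Together the 4 tested partners held 14.3, 4.9 and 5.7 CPM in the PWK/PhJ libraries, and 2.8, 9.5 and 2.6 CPM in A/J. Their strain means and slopes were not recomputed without PWK/PhJ replicate 1 or A/J replicate 2, and may rest on them.

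Of 58 other macrophage genes listed, 54 were tested, 50 differed among strains (74.2% of all genes did), and 28 had a called positive slope on the shared level and none a negative one (2.81% and 0.207% of all genes). Itgb2, a leukocyte integrin chain, Rac2, a GTPase of the phagocyte oxidase, and Syk, a kinase downstream of Fc receptors, had slopes of 1.08, 1.18 and 1.19. Some listed genes with higher levels, such as Ctsb, a lysosomal protease (mean 929 CPM), and Nr1h3, the nuclear receptor LXR alpha (68.0 CPM), had slopes of 0.276 and -0.038 that did not pass. Among called genes of this list the ratio of strain means was widest for Clec4n, a lectin receptor, from 0.0101 CPM in CAST/EiJ, under 1 count a library, to 0.849 CPM in C57BL/6J, and narrowest for Hpgd, a prostaglandin-degrading enzyme, from 56.0 CPM in WSB/EiJ to 110.7 CPM in NZO/HlLtJ.

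The other cell types a liver preparation can hold were measured with separate marker lists. None of 12 endothelial, 10 hepatocyte or 10 stellate cell genes had a called slope on the shared level. Of all genes 2.81% had a called positive and 0.207% a called negative slope, so none among so few genes is near that share. The endothelial slopes were all positive, with a median of 0.519, against medians of 0.312 for the stellate cell and 0.054 for the hepatocyte genes. The mean log2 CPM of the endothelial genes had a Pearson correlation of 0.603 with the shared level over the 27 libraries, and of 0.524 after strain means were removed. Those of the hepatocyte genes were 0.22 and 0.0556. These are descriptions of libraries that share strains, and the part of endothelial cells in the members' values was not tested beyond the second covariate above. Sums of the blood cell lists cover only their tested genes and are not a measure of the cell types. Of the T and NK cell list 1 of 8 genes was tested (Ccl5), and its level ran from 0 to 0.759 CPM. The neutrophil list summed to 0 to 2.28 CPM with 2 of 7 tested, and the monocyte list to 0.621 to 5.23 CPM with 4 of 7 tested. The sum of the 2 tested B cell genes ran from 0.510 CPM in DBA/2J replicate 4 to 30.3 CPM in NOD/ShiLtJ replicate 2. That of the 4 tested red cell genes ran from 2.19 CPM in CAST/EiJ replicate 1 to 34.9 CPM in WSB/EiJ replicate 2. Every list had counts in some library, and no listed gene found in the table was at 0 in all 27. Called slopes included those of Ccr2 and Csf3r (1.26 and 1.14), of 1 of 6 dendritic cell genes tested (Itgax, 1.96), of 1 of 2 B cell genes (Ighm, 0.939) and of 1 of 4 red cell genes (Hbb-bs, 1.87). The other dendritic and red cell genes included slopes near or under 0, such as Xcr1 (-0.0347) and Alas2 (-0.239), which were not called. Their part in the members' values was not tested.

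The 12 genes outside the members whose level was most like the shared level, after strain means were removed, were Sdc3, Itgal, Axl, Itgb2, Rac2, Treml4, Tmsb4x, Siglec1, Sirpa, Wfdc17, Nfam1 and Iqgap1. Their Pearson correlations over 27 libraries ran from 0.907 for Iqgap1 to 0.961 for Sdc3 and Itgal, among 11390 genes of at least 1 CPM. Without DBA/2J replicate 4 and PWK/PhJ replicate 1, the libraries farthest from the median of the shared level after strain means were removed, they ran from 0.854 to 0.944. Axl, a receptor for dying cells, and Siglec1, the macrophage lectin sialoadhesin, averaged 6.88 and 4.49 CPM.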

How the data were processed

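Expression was measured by RNA sequencing of 27 libraries, 3 for each of 9 strains. The values the authors deposited are estimated counts per Ensembl gene in 1 table, unscaled. Per the submitters' processing notes FastQC 0.11.5 and DESeq2 were used and the builds named are GRCm38 and mm10. The aligner, the counting program and the genome used for each strain are not given in the sources used here. Per the labels' protocols, polyadenylated RNA was selected and libraries were made with a kit not described as strand-specific.

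Values were rounded to whole counts (a change of at most 0.00026% in any library total). Symbols came from GENCODE M21, which named 42462 of 43346 genes. Genes were kept with filterByExpr and fitted with edgeR 4.0.16 under R 4.3.3, limma being 3.58.1: TMM factors (0.722 to 1.23), a quasi-likelihood model with strain as factor, and Benjamini-Hochberg adjustment over all 14482 genes, called under 0.05. Standard errors were derived from the F statistic. The shared level is the mean log2 CPM with a prior count of 2, taken for each member without that member. CPM values are scaled to TMM-adjusted library size. The fits were tested on simulated data before use. Libraries of a strain differed by more than sampling noise (lowest chi-square per degree of freedom 18.7), so all were counted. The labels call them biological replicates and give no batch.

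All 32 members are named. Other genes were named by the strength of their correlation with the shared level within strains (12 genes) or by lists. The members and lists were chosen with earlier results of these data known, so list counts are descriptions. Fold changes of pooled counts have exact intervals. Alternatives were DESeq2 1.42.0, median-of-ratios scaling, other filters, no rounding, other forms of the shared level, an endothelial covariate, the replicate number as a block, and leaving out each library. Leaving out the 2 highest libraries together was chosen after seeing the data.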

Additional observations from a re-analysis of the deposited data

How the results depend on the processing

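The number of members that differed among strains (32) stayed at 31 or 32 in every alternative run, the number given the shared level (26) between 24 and 30, and the number with a positive slope (32) between 26 and 32. The range of strain means of the shared level was 1.98 to 2.59 log2 units under other scalings and forms of the level and 1.92 to 2.30 with a library left out, with C57BL/6J always highest; the lowest strain was 129S1/SvImJ, CAST/EiJ or NOD/ShiLtJ. Counts of members called in single strains moved more. With DESeq2 they were 14 in 129S1/SvImJ and 2 in DBA/2J, and without a filter on low counts 15 and 2. With the replicate number as a block they were 10 in A/J, 4 in CAST/EiJ and 3 in NZO/HlLtJ. Correlations of deviations from strain means showed no clear pairing by number, which does not exclude it. Over 76 pairs with the same number they ran from -0.293 to 0.275, with a median of 0.0232, against -0.00458 over 248 other pairs. For 7 of 27 libraries the mean correlation was highest with libraries of their own number. CAST/EiJ replicate 5 had no other library of its number. Without A/J replicate 2 and PWK/PhJ replicate 1, chosen after seeing the data, the counts of members called were 6 in A/J, 2 in DBA/2J and 11 in PWK/PhJ. With single libraries left out these counts ran from 1 to 15 in 129S1/SvImJ, 4 to 25 in A/J, 14 to 29 in C57BL/6J, 3 to 15 in CAST/EiJ, 0 to 2 in DBA/2J, 2 to 5 in NOD/ShiLtJ, 2 to 8 in NZO/HlLtJ, 10 to 26 in PWK/PhJ and 2 to 3 in WSB/EiJ. The cause was not tested beyond the loss of samples. Departures were recomputed for 1 strain of each of the 26 departing members, that of the largest difference. Among these only Ctss in WSB/EiJ changed direction, from -0.0835, without WSB/EiJ replicate 2, to 1.32 with single libraries left out; the other departures were not recomputed. Slopes that missed the threshold in some of 38 alternatives were those of Marco (15), Folr2 (8), Fcgr3 (4), Mpeg1 (4), Fcer1g (3) and Irf8 (2). Depth limits Folr2, Marco, H2-Eb1, Aif1, Fcgr1, Fcgr3, Fcer1g, Spi1 and Ccl6, which hold fewer than 10 counts in some libraries.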
